A study of Drosophila melanogaster with 4 samples.

Results

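The Antennapedia complex is a group of homeobox genes on arm 3R of Drosophila melanogaster, and its H3K9ac was read here from lists of ChIP-seq enriched regions, called clusters. The members were the clusters that overlapped the window 3R 2480000 to 2830000 of genome release 5, a stretch of 350 kb that holds lab, pb, zen, bcd, Dfd, Scr, ftz and Antp in this order. There were 25 such clusters among the 8495 of ChIP replicate 1, 20 among the 6772 of ChIP replicate 2, and 52 among the 12322 of a series-wide list that the authors deposited for the replicate set. All samples were whole wild-type Oregon-R embryos at 14 to 16 h of development, as 2 H3K9ac ChIP samples and 2 input samples without antibody. Separate collections are not stated for the replicates, so their spread may be technical. Read depth is unknown.

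H3K9ac is acetylation of lysine 9 of histone H3, a mark found around the promoters of transcribed genes. Hox genes encode homeodomain transcription factors that give the body segments their identity along the head-to-tail axis, and they lie in the genome broadly in the order of the segments they act in. Polycomb group proteins are known to keep them silent in the segments where they are not used. In the complex, lab acts in the head and the midgut, pb in the adult mouthparts, Dfd in the mandibular and maxillary segments, Scr in the labial and first thoracic segments, and Antp in the thorax. The remaining members left the homeotic role during insect evolution: zen acts in dorsal and extraembryonic tissue, bcd encodes the maternal morphogen of the anterior pole, and ftz is a pair-rule gene of segmentation. Each library pools all cells of the embryo, so fewer nuclei with the mark and less mark per nucleus cannot be told apart.

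The gene table used here is of Release 6, in which all 8 members stand on 3R in the order given above. From lab to Antp it lists 35 other genes, 11 of them protein-coding, among them 7 Ccp84A cuticle protein genes between lab and pb. It also lists 2 microRNA genes and 4 tRNA genes. Coordinates were not carried over to release 5, so no cluster is assigned to a single gene, and position is given from the lab end (low coordinates) to the Antp end (high coordinates). A cluster in the window can therefore belong to a gene that is no member.

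In the replicates, H3K9ac clusters were about as frequent in the window as on the rest of 3R, and in all 3 lists most of them scored below the median of their list. The series-wide list was denser in the window than on the rest of the arm. Score percentiles are used for strength, each being the share of clusters in the same whole-genome list that score lower. Window clusters had a median percentile of 26.4 in replicate 1, where the rest of 3R had 48.4. In replicate 2 these were 34.0 and 47.4. The difference, window minus rest, was -22.0 and -13.4 points, a mean of -17.7 ± 6.12 (SD, n = 2 replicates), and the series-wide list gave -16.8. Both replicates showed this difference. Its SD is the spread between the 2 replicates at this locus and does not measure how stretches of the arm vary. With 2 replicates no exact permutation test can reach p under 0.05, so no test was made on these or later values.

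Of the 25 window clusters of replicate 1, 5 scored at or above the median of their list, or 20.0%, where the rest of 3R had 48.3%. In replicate 2 these were 6 of 20, or 30.0%, against 47.9%, and in the series-wide list 11 of 52, or 21.2%, against 46.1%. At the other end of the range, 12 of 25 clusters of replicate 1 and 8 of 20 of replicate 2 were in the lowest 25% of their list, which is 48.0% and 40.0%, against 26.7% and 25.6% on the rest of the arm. A single cluster in each list reached the highest 10%, which is 4.00%, 5.00% and 1.92% of the window clusters of replicates 1 and 2 and the series-wide list. The rest of 3R had 9.61%, 9.56% and 10.1%.

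The number of clusters and the covered bases stood close to those of the arm in the replicates. Replicate 1 had 71.4 clusters per Mb in the window and 73.6 on the rest of 3R, and replicate 2 had 57.1 and 59.2. Clusters covered 70.6 kb of the window in replicate 1, or 20.2%, and 47.5 kb in replicate 2, or 13.6%, which gives 16.9% ± 4.66 (SD, n = 2). The rest of 3R was covered to 21.8% and 15.5%. The ratio of window to rest was 0.925 and 0.873, a mean of 0.899 ± 0.0366. Window clusters were also narrower, with medians of 1943 bp (replicate 1) and 1887 bp (replicate 2) beside 2315 and 2208 bp on the rest of the arm, a ratio of 0.847 ± 0.0108.

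The series-wide list differed from the replicates in this. It held 149 clusters per Mb in the window and 106 on the rest of the arm, a ratio of 1.41, and it covered 34.1% of the window against 29.7%. Its window clusters were narrow, at a median of 1687 bp beside 2092 bp. The ratio of coverage to the rest of 3R was thus below 1 in both replicates and 1.15 in the series-wide list.

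Set among the 78 other complete windows of the same length along 3R, the window ranked in the middle of the range for coverage and near the bottom for strength. Its coverage exceeded that of 32 of the 78 in replicate 1 and 29 in replicate 2. Its median score percentile exceeded that of 4 of the 78 for replicate 1, 12 for replicate 2 and 5 for the series-wide list. Its 52 series-wide clusters exceeded the count in 71 of the 78, whose median was 40. These ranks describe windows of a single arm and are no test.

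**Figure D1:**
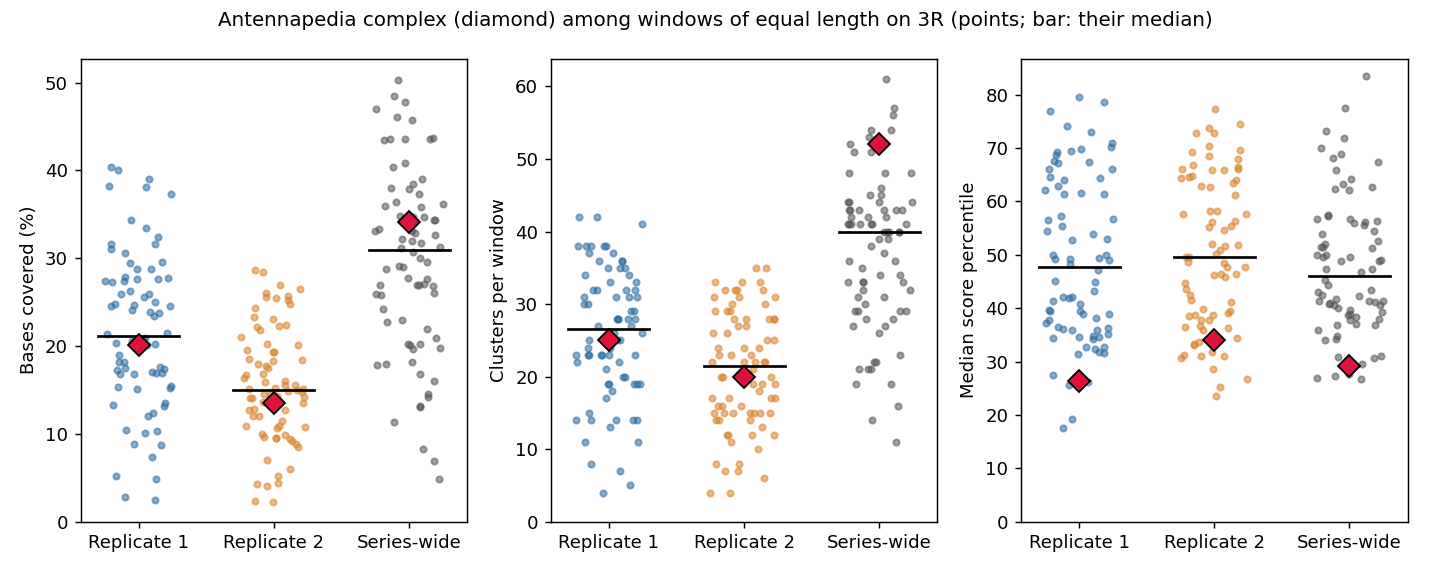
Bases covered (%), clusters per window and median score percentile for windows of 350 kb along 3R, in each of the 3 lists; points are the 78 other windows, black bars their medians and red diamonds the Antennapedia complex. The diamond lies near the middle for coverage and near the bottom for the score percentile (26.4, 34.0 and 29.2).

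Along the complex, H3K9ac coverage was highest at the lab end and lowest in the 100 kb nearest the Antp end. The 50 kb nearest the lab end were covered to 47.6% and 31.6% in replicates 1 and 2, and to 60.5% series-wide. This was 2.18, 2.04 and 2.04 times the rest of 3R. The 50 kb from 250 to 300 kb into the window were covered to 3.78% and 5.88% in the replicates, and the last 50 kb to 6.61% and 3.33%. Relative to the rest of the arm this was 0.174 and 0.303 times in replicate 1, and 0.379 and 0.215 times in replicate 2. In the series-wide list they had 20.5% and 23.3%, or 0.690 and 0.786 times the rest. Segments of 50 kb elsewhere on 3R were not measured, so how usual such values are on the arm is unknown.

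Between these ends, the replicates were close in places and apart in others. From 100 to 150 kb coverage was 18.5% ± 1.97 and from 150 to 200 kb 17.7% ± 1.77 (mean ± SD, n = 2). From 50 to 100 kb it was 27.6% in replicate 1 and 9.51% in replicate 2, and from 200 to 250 kb 19.2% and 8.49%. Divided at its midpoint, the window had 31.9% and 21.3% of bases covered on the lab side, and 8.45% and 5.83% on the Antp side. The lab side held 18 and 14 of the clusters and the Antp side 7 and 6. The values of both replicates on the lab side lay above both values on the Antp side. These stretches are neighbours within a single locus and not replicates.

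**Figure D2:**
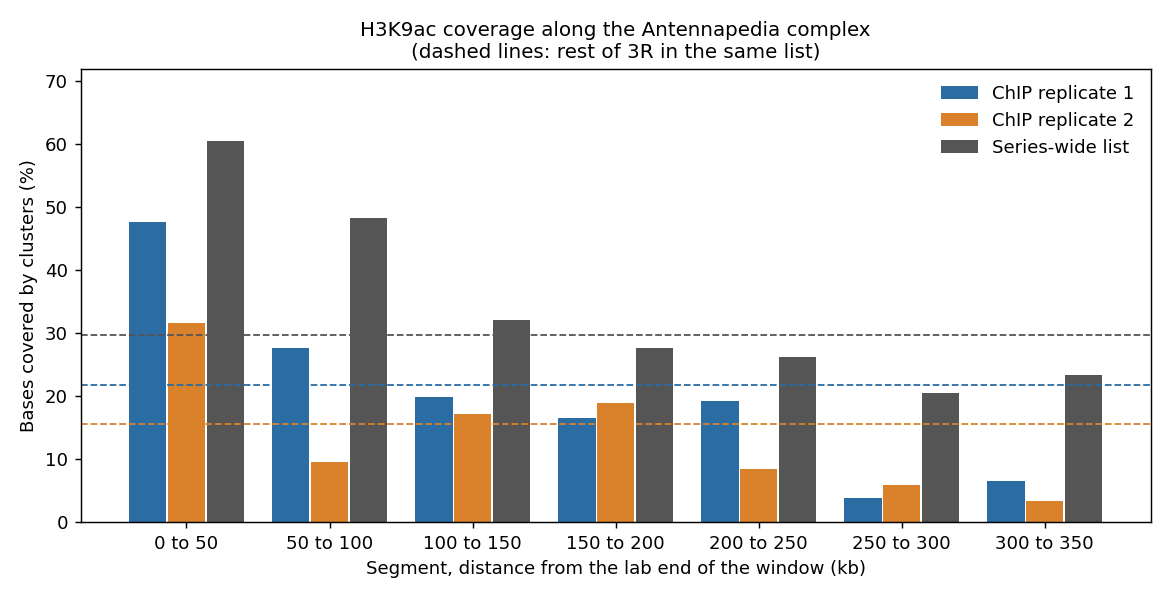
Share of bases covered by clusters (%) in segments of 50 kb from the lab end (left) to the Antp end (right); bars are the 3 lists and dashed lines the value of the rest of 3R in the same list. Coverage is 47.6% and 31.6% in the leftmost segment of the replicates and at most 6.61% in the last 2 segments.

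The 5 highest-scoring clusters of the series-wide list in the window were each overlapped by both replicates. That list rests on these very libraries, so this is a description. Series-wide clusters of like score on the rest of 3R were not counted for it. From the lab end, they were on 3R at 2481834 to 2485176, 2502086 to 2506538, 2586180 to 2593498, 2634576 to 2642884 and 2688782 to 2692238. The distances between them were 16.9, 79.6, 41.1 and 45.9 kb. The 5 clusters of replicate 1 that scored at or above the median of their list all lay in these places, as did 5 of the 6 of replicate 2. In the series-wide list 11 clusters reached that median, and 6 of them lay elsewhere in the window, at percentiles up to 67.7. Of the covered bases of the window, the 5 places held 37.3% and 51.4% in replicates 1 and 2, and 22.5% series-wide.

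The strongest of them was at the lab end, 1.83 kb inside the edge of the window. It was 3.34 kb wide, and it stood at percentile 97.0 series-wide, and at 93.9 and 94.9 in replicates 1 and 2. It ranked 89 of 2964 on 3R in the series-wide list. The next lay 22.1 kb into the window and adjoined a run of clusters. It stood at percentile 82.2 series-wide, and at 75.0 and 58.7 in replicates 1 and 2, the widest gap between the replicates among the 5. In replicate 1 the clusters at 2491681 to 2498036, 2498108 to 2501888 and 2502087 to 2506528 followed each other with gaps under 1 kb.

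In the middle of the window, the cluster at 2586180 to 2593498 was 7.32 kb wide. Replicate 1 covered 95.1% of it with 1 cluster and replicate 2 covered 84.3% with 3, and its best percentile in them was 78.0 and 82.7. The cluster at 2634576 to 2642884 was the widest of the complex, at 8.31 kb. Its percentiles were 87.6 (series-wide), 79.5 (replicate 1) and 75.4 (replicate 2). By width on 3R it ranked 93 of 2964 series-wide, 56 of 2054 for replicate 1 and 15 of 1652 for replicate 2. The stretch without a cluster on its lab side was 34.1 kb in replicate 1, 36.4 kb in replicate 2 and 25.4 kb in the series-wide list. On its Antp side the replicates had 41.4 kb and 24.0 kb without a cluster, while the next series-wide cluster followed after 0.877 kb. The one nearest the Antp end, at 2688782 to 2692238, was 3.46 kb wide with percentiles of 79.8, 70.6 and 71.8.

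Beyond that cluster, no strong H3K9ac cluster was found up to the Antp end of the window in either replicate. Replicate 1 had no cluster at or above the median score of its list from 2692230 to 2891274, a stretch of 199 kb that ranked 15 of 986 such stretches on 3R by length. In replicate 2 the same kind of stretch ran from 2691741 to 2891504, 199.8 kb, and ranked 19 of 789. The median such stretch on 3R was 8.25 kb and 12.5 kb. Of each stretch, 137.8 and 138.3 kb lay in the window. Weaker clusters were present in the window part of these stretches, 5 in replicate 1 and 3 in replicate 2. A single pair of these coincided, at 2757153 to 2759044 in replicate 1 and 2757138 to 2759020 in replicate 2, with percentiles of 16.9 and 12.5. The series-wide list had a cluster at percentile 57.8 within this stretch, at 2724806 to 2726556, which overlapped neither replicate.

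**Figure D3:**
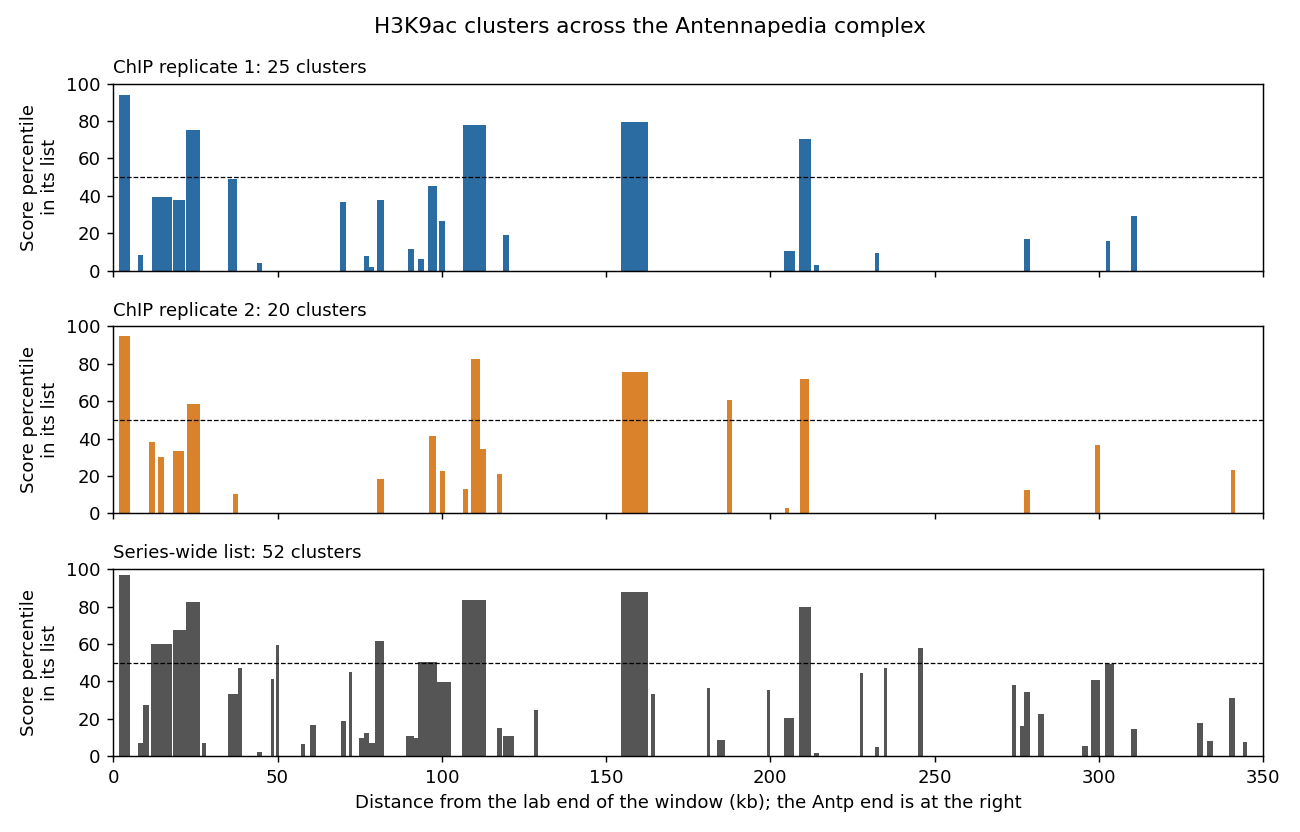
Clusters of the 3 lists across the window; the x axis is the distance from the lab end (kb), bar width is cluster width, bar height is the score percentile within the list, and the dashed line marks the median score. The same 5 places rise above the line in all lists, together with 1 further cluster of replicate 2 and 6 of the series-wide list, and no replicate cluster does so in the last 137.8 kb.

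Several stretches of the complex carried no cluster in any of the 3 lists. The longest was 26.9 kb on 3R at 2726557 to 2753411, in the Antp part of the window. It was followed by 25.4 kb at 2609199 to 2634575, 18.1 kb at 2791693 to 2809835, 15.8 kb at 2644851 to 2660625 and 12.3 kb at 2694913 to 2707227. The 8.31 kb cluster thus began where the second of these ended. On 3R as a whole the longest of them ranked 146 of 2947 stretches free of all lists. In replicate 1 the longest stretch inside the window was 44.0 kb, at 2713151 to 2757152, and in replicate 2 it was 65.4 kb, at 2691741 to 2757137. The longest stretch exceeded that of 19 of the 78 other windows for replicate 1, 29 for replicate 2 and 8 for the series-wide list. Stretches over 20 kb wholly inside the window numbered 5 in each replicate, or 14.3 per Mb, against 9.76 and 10.9 per Mb on the rest of 3R. The share of bases in them was close to the rest, at 47.5% against 48.3% in replicate 1 and 59.4% against 58.6% in replicate 2. In the series-wide list there were 5.71 per Mb against 8.35, with 14.9% of bases against 32.3%. Stretches across the window edge were left out, among them one of 47.0 kb in replicate 1 with 38.5 kb in the window. The median stretch was 5.29 kb against 3.91 kb in replicate 1, 5.71 kb against 5.02 kb in replicate 2, and 2.16 kb against 2.52 kb series-wide.

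The share of clusters that recurred between the replicates was lower in the complex than on the rest of 3R in both directions, within counting error. Of the 25 clusters of replicate 1, 13 overlapped a cluster of replicate 2, or 52.0% (95% Wilson interval 33.5 to 70.0%, which covers counting error alone), against 67.4% on the rest of the arm. Of the 20 of replicate 2, 16 overlapped a cluster of replicate 1, or 80.0% (58.4 to 91.9%), against 90.9%. Each interval includes the value of the rest of the arm, so a lower share is not shown at these numbers. Below the median score, 8 of 20 replicate 1 clusters recurred, or 40.0%, against 42.3%, and at or above it 5 of 5, against 94.3%. In replicate 2 these were 11 of 14, or 78.6%, against 86.0%, and 5 of 6, or 83.3%, against 96.2%.

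In 11 pairs each cluster overlapped just the other, and the median distance was 116 bp between starts and 150 bp between ends, with a maximum of 1729 and 1655 bp. In the other overlaps, 2 clusters of replicate 1 each spanned several of replicate 2, and edges lay up to 5284 bp (starts) and 5320 bp (ends) apart. The wider cluster of each pair was that of replicate 1, in 11 of 11 cases. Such pairs were not counted on the rest of 3R, where replicate 1 clusters also had the larger median width (2315 against 2208 bp). The bases shared by both replicates came to 40.7 kb, a Jaccard index (shared over total covered bases) of 52.7%, against 60.5% on the rest of 3R. Unpaired clusters of replicate 1, 12 in all, were narrow and weak, with medians of 1573 bp for width and 8.94 for percentile. Paired ones had 3258 bp and 45.0. These medians were not computed for the rest of 3R. The highest-scoring cluster of replicate 1 without a partner was at 2549068 to 2550695, with percentile 36.8, followed by 2789713 to 2791541, with 29.4, 2598582 to 2600524, with 18.9, 2782014 to 2783489, with 16.0, and 2569680 to 2571538, with 11.3.

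In replicate 2, 4 clusters had no partner. Their medians were 1376 bp for width and 30.1 for percentile, where the 16 paired ones had 1965 bp and 34.0. The 4 lay at 2596862 to 2598387, 2666838 to 2668188, 2778941 to 2780341 and 2820215 to 2821539, with percentiles of 21.2, 60.8, 36.9 and 23.3. The second of these, 1351 bp wide, was above the median of its list and was the single replicate cluster of the window that the series-wide list did not overlap.

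The series-wide list held more clusters of the complex than either replicate, and many overlapped neither. Both replicates overlapped 13 of its 52 window clusters, or 25% (Wilson interval at 95% confidence 15.2 to 38.2%), against 44.1% on the rest of 3R, a value above the interval. A further 12 overlapped replicate 1 alone, or 23.1%, against 20.2%, and 4 overlapped replicate 2 alone, or 7.69%, against 4.05%. The remaining 23 overlapped neither, or 44.2% (31.6 to 57.7%), against 31.7%, a value the interval just includes. These intervals cover counting error alone and treat neighbouring clusters of a single locus as independent, so they are no test. The shares were not compared at like score. Of the series-wide clusters, 21.2% in the window and 46.1% on the rest of 3R scored at or above the median of the list. For clusters found in both replicates the medians were 3971 bp for width and 61.8 for percentile, and for those in neither 1311 bp and 24.9. On the rest of the arm these medians were 3287 bp and 77.7, and 1257 bp and 27.9. On the Antp side of the midpoint, 13 of 22 series-wide clusters overlapped neither replicate, or 59.1%, and 3 of 22 overlapped both. On the lab side, 10 of 30 overlapped neither, or 33.3%, and 10 of 30 both.

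**Figure D4:**
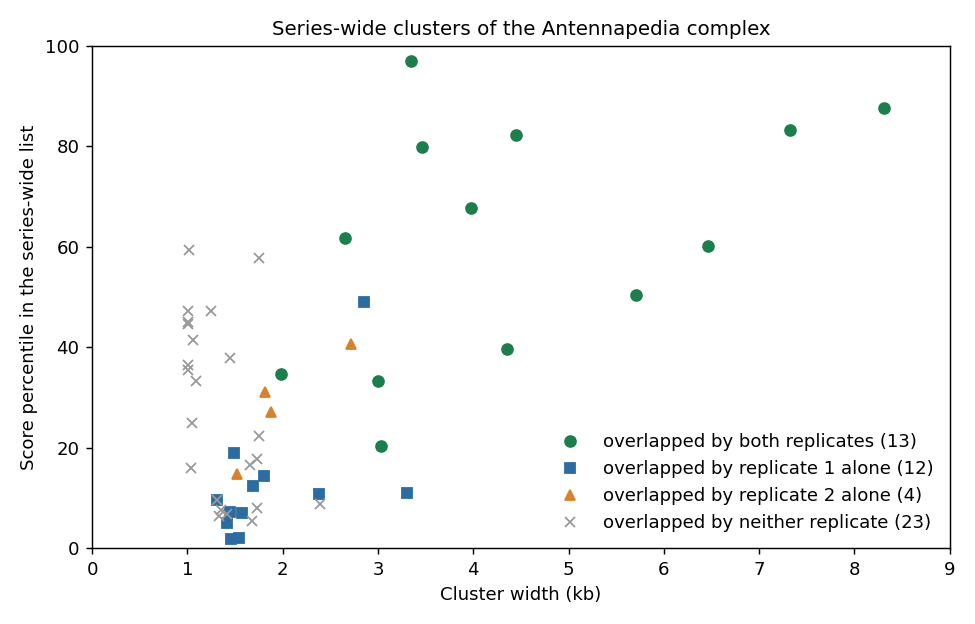
Width (kb) and score percentile of the 52 series-wide clusters of the complex, marked by the replicates that overlap them. The clusters overlapped by both replicates include all wider than 3.31 kb, and the 23 overlapped by neither are at most 2.39 kb wide.

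The wide clusters of the complex were not all strong. The next by width after the 2 clusters in the middle of the window, 6.46 kb at 2491520 to 2497984 and 5.71 kb at 2572794 to 2578504, had percentiles of 60.2 and 50.5. Replicate 1 covered 97.5% and 76.5% of them, with 1 and 2 clusters, and replicate 2 covered 48.8% and 37.7%, with 2 and 1. In replicate 1 their clusters stayed below the median score, with a best percentile of 39.6 in the first and 45.0 in the second. The clusters of replicate 2 in these places did so too, with best percentiles of 38.5 and 41.4.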

How the data were processed

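Per the labels, H3K9ac ChIP and input samples were taken from wild-type Oregon-R embryos. The authors deposited a list of enriched regions for each ChIP replicate and a series-wide list, on FlyBase release 5 per the file headers. The authors deposited a score with each region (column 6). Its scale is not stated, so it served for ranks within a list alone. For the aligner, caller, threshold and combination of replicates, the sources used here give nothing. Per the labels, each input served 1 ChIP list. No input values were used.

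Covered bases were counted after merging clusters and clipped to the window, and an overlap of 1 bp made clusters shared. The rest of 3R, of 27.9 Mb, was the background. Regions were named by rank of score, width, missing partner and stretch length. The members, lists and this rule were chosen with earlier results of these data known. A cluster lay on the lab or the Antp side by its centre. Interval code was tested on simulated data. Coordinates count from 1. The code ran in Python 3.11.15 with matplotlib 3.10.9, scipy 1.17.1, pandas 2.3.3 and numpy 2.4.6.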

Additional observations from a re-analysis of the deposited data

How the results depend on the processing

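Of 43 settings other than single replicates, 19 left the value within the SD between replicates or the Wilson interval, 18 moved it, and 6 took it across equality. In the series-wide list the coverage was 34.1%, the ratios to the rest of 3R were 1.15 for coverage, 1.41 for density and 0.806 for width, and the longest free stretch was 26.9 kb. With its clusters of at least the width of the narrowest cluster in the replicates, a setting chosen after seeing the data, the ratios were 1.13, 1.39 and 0.733 and the percentile difference was -35.7. When clusters under the median score were left out, coverage was 6.96%, the ratios were 0.601 for coverage, 0.503 for density and 1.21 for width, the percentile difference was 0.361, the longest stretch was 138.0 kb and 100% of replicate 1 clusters recurred. That setting removes the weak clusters by its construction. The window narrowed by 25 kb at each end, without the strongest cluster, gave 0.757, 0.897 and 0.818 for coverage, density and width, and widened by 25 kb 0.828 for coverage and 0.918 for density. The density ratio was 0.979 against the autosome arms. Joining clusters over gaps of at most 1 kb gave 0.960 for density and 0.754 for width. Otherwise the cause was not tested. With either replicate alone, the coverage ratio ranged from 0.873 to 0.925 and the percentile difference from -22.0 to -13.4. No paired analysis was possible because no test compares groups and input values were not used. The limit that depth sets could not be measured, since read depth is unknown.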

Other observations

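The windows of 350 kb on either side of the complex gave these H3K9ac values. The window next to the lab end had 23 clusters in replicate 1 and 15 in replicate 2, with coverage of 15.1% and 10.8% and median score percentiles of 35.2 and 50.2. The window next to the Antp end had 25 and 18 clusters, coverage of 20.3% and 14.8%, and median percentiles of 37.8 and 63.4. The complex itself had percentiles of 26.4 and 34.0, below those of both neighbours in each replicate. In the series-wide list the order differed: the complex had 29.2, the window next to the lab end 41.0 and the window next to the Antp end 27.4. That list held 36 and 39 clusters in the neighbouring windows against 52 in the complex. These windows were not tested against each other.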
